A study of Mus musculus with 4 samples.

Results

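Liver turns from releasing fuel to storing it when a fasted animal eats. In fasting, glucagon and glucocorticoids favour glucose output, and free fatty acids activate the nuclear receptor PPARα, which switches on fatty acid oxidation and ketone body synthesis. On refeeding, insulin and glucose switch on glycolysis and fat synthesis through the transcription factors SREBP-1c, ChREBP and LXR, while SREBP-2 switches on cholesterol synthesis when sterols in the endoplasmic reticulum are low.

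The comparison is of control mouse liver in the refed state with control mouse liver in the fasted state, labelled WT_shNC_Refed and WT_shNC_Fasted. The series holds 4 liver RNA-seq libraries, 1 for each group: the 2 control libraries and 2 from livers labelled L_Cyb5b_shCyb5a, refed and fasted, called targeted here. The labels give the genotype of the controls as WT and add shNC without spelling it out, so both control livers carry that agent, and the names of the targeted livers point to Cyb5b and Cyb5a. Age, sex, strain, the lengths of fasting and refeeding, the hour of collection and any pooling of mice do not appear in the labels. With 1 library a side nothing can be said of the spread between animals, and no difference below was tested.

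The deposited tables list 943 genes that passed a threshold on the difference between targeted and control liver, 722 in the fasted table and 284 in the refed table, with 63 in both. Of these, 821 had at least 1 TPM (a transcript level corrected for length and library size) in either control library, and they are the genes described. None was chosen for its response to feeding, but each was chosen with the help of 1 of the same 2 control libraries, so counts over them do not stand for the whole liver transcriptome. They held 16.5% of all TPM in the control refed library and 10.2% in the control fasted library, or 3.63% and 3.92% without the Mup genes, which encode the major urinary proteins. Cyb5a was listed at 166 and 207 TPM in the targeted refed and fasted libraries, against 1274 and 1686 TPM in the control refed and fasted libraries. Cyb5b was at 49.5 and 27.4 TPM in the targeted refed and fasted libraries, against 174 and 72.4 TPM in the control refed and fasted libraries, so it was 2.40-fold higher in control refed than in control fasted liver. None of 6 defining hepatocyte markers looked for (Alb, Apoa1, Ttr, Hnf4a, Apob and Trf) is in the tables, so they could not be used to check the tissue label.

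Refed control liver had far more RNA of most listed genes that make fat and cholesterol, with Lpin1 and Gpat3 among those that were lower. It had far less of several PPARα targets, of metallothioneins and of several clock genes. Of the 821 genes, 141 were at least 2-fold higher in refed liver, 17.2% of the total, and 376 were at least 2-fold lower, 45.8% of the total. The median log2 ratio of TPM, refed over fasted, was -0.86. Differences reached at least 16-fold in 16 genes that were higher and 29 that were lower. For 807 genes a 95% interval of the ratio could be worked out from the reads behind it (exact Clopper-Pearson, covering counting error only), and it lay wholly past 2-fold for 107 genes that were higher and 225 that were lower. The intervals given below are of this kind. For some genes, among them Fasn, Acly, Apoa4 and Cyp2a5, only the fewest reads possible were known, so their intervals are approximate and may be too wide. Control fasted reads of genes in the refed table alone were estimated, so their intervals are approximate too. At the TPM threshold, the 9 genes with 1 to 1.1 TPM in the higher control library had a median log2 ratio of -1.24, and the 11 left out with 0.9 to 1 TPM had one of -0.53.

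**Figure D1:**
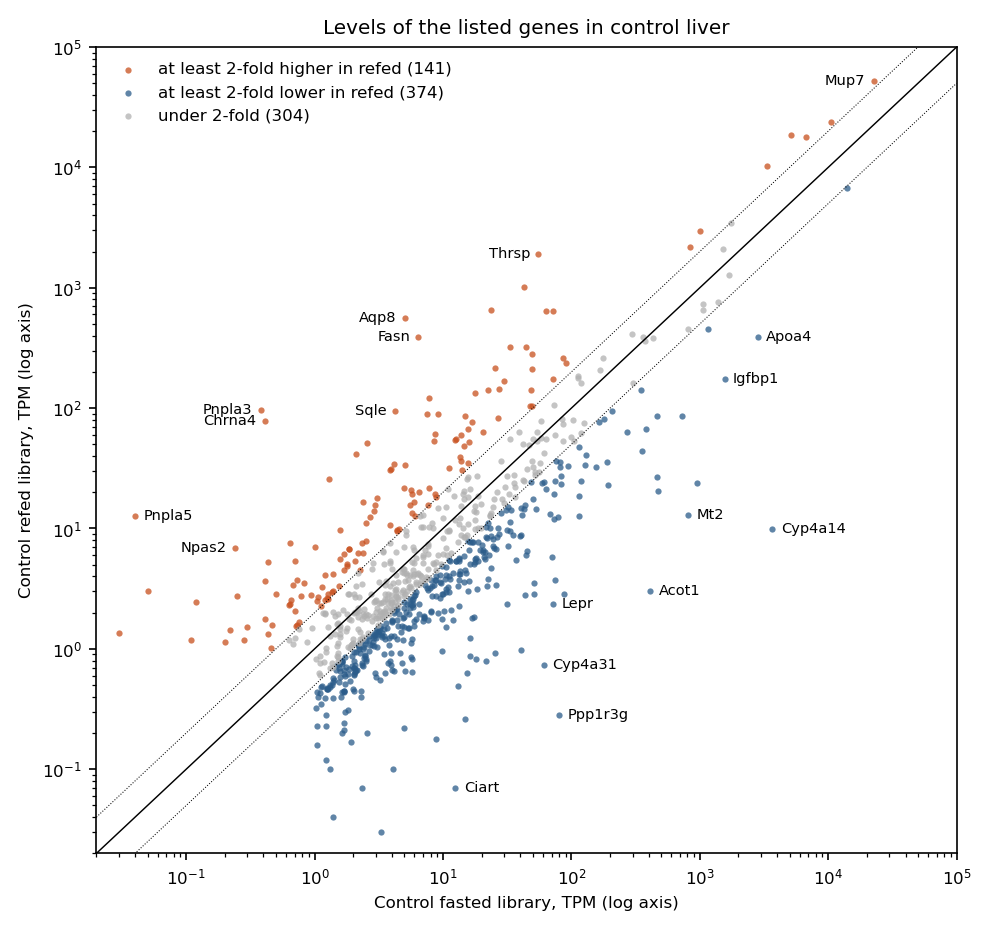
Each point is 1 of 819 listed genes with a level above 0 in both control libraries, with TPM in the control fasted library on the x axis and in the control refed library on the y axis, both logarithmic. The solid line marks equal levels and the dotted lines 2-fold; Fasn, Pnpla3 and Aqp8 lie far above them and Cyp4a14, Ppp1r3g and Acot1 far below.

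How a gene came to be listed went with the direction of its ratio. Among 470 genes listed as lower in targeted than in control fasted liver, 5.32% were at least 2-fold higher and 59.8% at least 2-fold lower in refed than in fasted control liver. Among 181 listed as higher in targeted fasted liver, 43.6% were higher and 12.7% lower. Among 57 listed as lower in targeted refed liver, 64.9% were higher and 12.3% lower. Among 172 listed as higher in targeted refed liver, 6.40% were higher and 54.7% lower. A gene whose control library happened to read high or low is more easily listed, and it then also has a high or low refed over fasted ratio. The share of the ratios that comes from this choice was not tested, so a list below is read against the genes that were listed the same way.

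**Figure D2:**
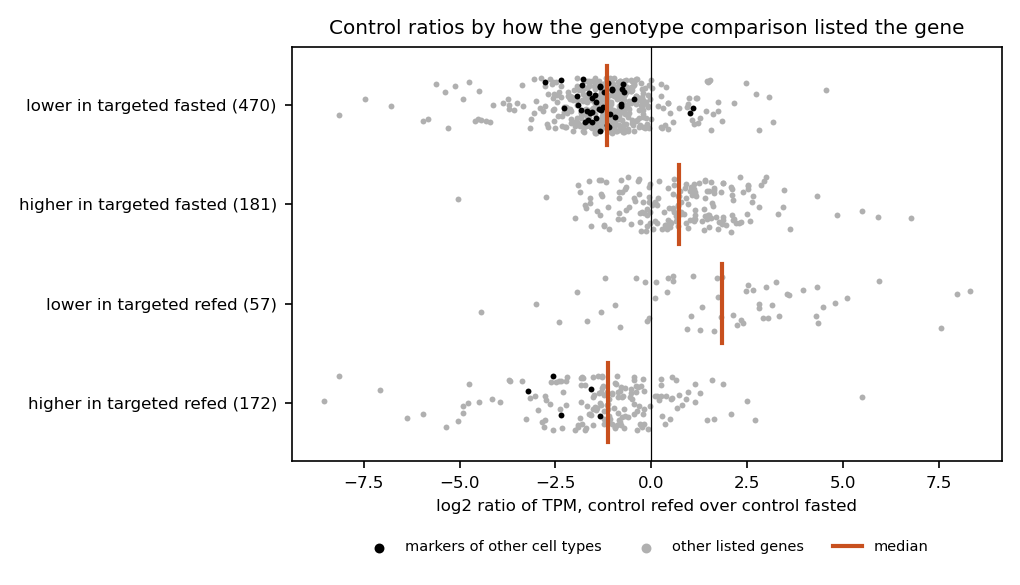
Log2 ratios of TPM, control refed over control fasted, for the listed genes, in rows by how the genotype comparison listed them, with the number of genes in parentheses; a gene in both tables is in 2 rows. Vertical bars are medians, at -1.16 and 0.73 for genes lower and higher in targeted fasted liver and at 1.84 and -1.12 for genes lower and higher in targeted refed liver; black points are markers of other cell types.

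RNA of cholesterol synthesis genes was higher in refed liver at every step that was listed. All 7 listed genes of 20 in the pathway were at least 5-fold higher, with a median ratio of 9.63-fold and summed levels of 1411 TPM in refed and 152 TPM in fasted liver. All 7 were listed as lower in targeted refed liver, a class in which 64.9% were at least 2-fold higher, so the count is less telling than the sizes. Acat2, which condenses acetyl-CoA units at the entry to the pathway, had 143 TPM in refed and 27.2 TPM in fasted liver. Hmgcs1, the HMG-CoA synthase, had 320 TPM in refed and 33.2 TPM in fasted liver, 9.63-fold higher (8.92 to 10.4).

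Mvd, the mevalonate diphosphate decarboxylase, had 41.7 TPM in refed and 2.11 TPM in fasted liver, 19.7-fold higher (14.3 to 28.1). Idi1, which isomerises isopentenyl diphosphate, had 134 TPM in refed and 17.9 TPM in fasted liver. Fdps, which builds farnesyl diphosphate, had 646 TPM in refed and 63.9 TPM in fasted liver, the highest of the 7 in both states. Of the steps after squalene, only Sqle and Lss were listed. Sqle, the squalene epoxidase and a rate-limiting enzyme of the pathway, had 94.8 TPM in refed and 4.23 TPM in fasted liver, a ratio of 22.4-fold (18.8 to 27.0) and the largest of the 7. Lss, which closes the sterol ring, had 31.3 TPM in refed and 3.91 TPM in fasted liver, higher by 7.07 to 9.09-fold. Later enzymes, among them those of sterol C4 demethylation, are not among the listed genes and were not analysed here. A list of 10 further genes of cholesterol uptake and control had 2 in the tables. Scarb1, a lipoprotein receptor, had 53.1 TPM in refed and 54.0 TPM in fasted liver, and Mylip, an LXR target that marks the LDL receptor for degradation, had 1.75 TPM in refed and 12.04 TPM in fasted liver.

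The promoter of Hmgcs1 is shown because it is the one promoter among the cholesterol genes matched that holds the letters TCACNCCAC, a form of the sterol regulatory element that SREBPs bind. The stretch is the 250 bases before the transcription start, chr13:119690101-119690350 of GRCm38.p6, plus strand, from RefSeq, with the match in capitals at 137 bases before the start.
Hmgcs1: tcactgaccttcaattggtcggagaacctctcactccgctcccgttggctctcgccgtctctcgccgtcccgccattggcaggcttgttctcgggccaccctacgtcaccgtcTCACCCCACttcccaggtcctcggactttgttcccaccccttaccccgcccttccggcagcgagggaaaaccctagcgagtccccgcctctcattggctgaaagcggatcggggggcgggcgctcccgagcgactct
On either strand these letters occurred in 1.05% of 32851 promoters of the same length, and in 1 of 5 promoters of the listed cholesterol genes and 0 of 10 of the listed fat synthesis genes. A match is a run of letters and not a measured binding site, and their absence from this window says nothing of SREBP at the other genes.

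RNA of most listed fat synthesis genes was higher in refed liver, with a larger median ratio than the cholesterol genes. The list includes Thrsp, Pnpla3 and Pnpla5, which are not enzymes of the route to fatty acids and raise its median. The medians therefore do not rank the pathways. Of a set of 27 genes for fatty acid and triglyceride synthesis, 11 were listed and 10 had at least 1 TPM. Of the 10, 9 were at least 2-fold higher in refed liver and 1 was lower, against 17.2% and 45.8% of all the genes described. The median ratio was 18.2-fold, and the summed levels were 3467 TPM in refed and 279 TPM in fasted liver. All 10 were listed as lower in targeted refed liver, a class in which 64.9% were at least 2-fold higher. Of them, 2 were also listed as lower in targeted fasted liver, a class in which 5.32% were higher. Thrsp, a nuclear protein that promotes lipogenesis, carried most of the sum, with 1899 TPM in refed and 55.4 TPM in fasted liver, 34.3-fold higher (29.2 to 40.4).

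Along the route from citrate to fatty acid, Acly, which splits citrate into acetyl-CoA, had 655 TPM in refed and 23.6 TPM in fasted liver, 27.8-fold higher (24.0 to 32.4). Acaca, the acetyl-CoA carboxylase that commits carbon to fat synthesis, had 89.3 TPM in refed and 7.46 TPM in fasted liver. Acacb, its mitochondrial form, whose malonyl-CoA restrains fatty acid entry into mitochondria, had 52.1 TPM in refed and 15.9 TPM in fasted liver, a ratio of 3.28-fold that was the smallest of the 9. Fasn, the fatty acid synthase, had 393 TPM in refed and 6.44 TPM in fasted liver, 61.0-fold higher (46.4 to 81.8). Elovl6, which lengthens the product, had 167 TPM in refed and 30.1 TPM in fasted liver, and Aacs, which activates acetoacetate for lipid synthesis, had 61.1 TPM in refed and 8.63 TPM in fasted liver.

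A pair of lipid droplet genes differed more than any enzyme of the route. Pnpla3, a lipase-like protein of the lipid droplet whose human variant is tied to fatty liver, had 96.5 TPM in refed and 0.38 TPM in fasted liver, 254-fold higher (154 to 454). Pnpla5, a related protein, had 12.7 TPM in refed and 0.04 TPM in fasted liver, which is about 1 read in the fasted library, so its ratio of 317-fold has an interval of 56.5 to 12568. Lpin1 ran the other way, with 41.0 TPM in refed and 131 TPM in fasted liver, 3.20-fold lower. It is a phosphatidate phosphatase that also acts as a coactivator of PPARα in fasting. Gpat3, a glycerol phosphate acyltransferase outside this list, was lower too and is described at the end.

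Genes of glucose use were higher too. Those described here, G6pdx and Slc2a4, were listed as lower in targeted refed liver, a class in which 64.9% were at least 2-fold higher. G6pdx, which feeds the pentose phosphate route and so supplies NADPH, had 34.1 TPM in refed and 4.16 TPM in fasted liver. Slc2a4, the insulin-responsive glucose carrier better known from muscle and fat, had 2.46 TPM in refed and 0.12 TPM in fasted liver, so both levels were low and the interval of its 20.5-fold ratio ran from 7.70 to 77.1.

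The 2 listed genes of glycogen, both subunits that bring protein phosphatase 1 to glycogen, lay at opposite ends. Ppp1r3c had 51.3 TPM in refed and 2.57 TPM in fasted liver, a ratio whose interval ran from 15.8 to 25.5-fold. Ppp1r3g had 0.28 TPM in refed and 79.9 TPM in fasted liver, 285-fold lower (138 to 711), with 7 reads in the refed library.

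**Figure D3:**
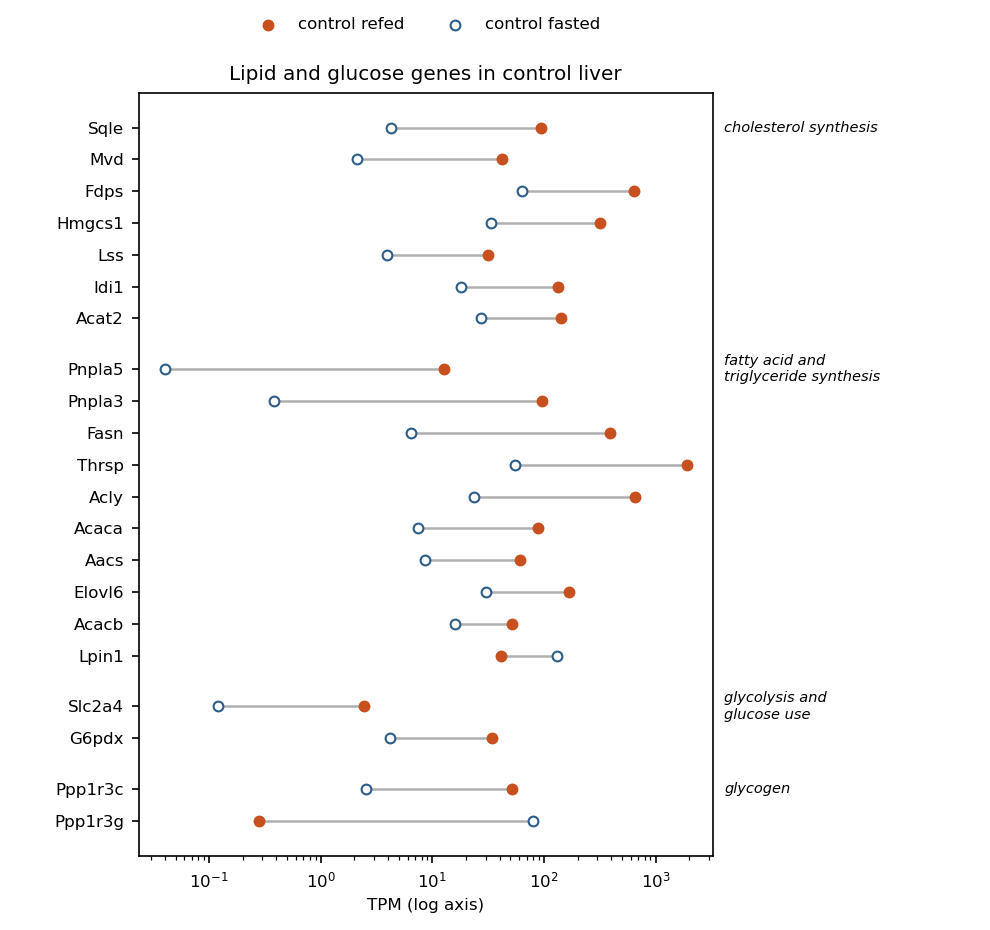
TPM on a logarithmic axis in the control refed library (filled) and the control fasted library (open) for genes of cholesterol synthesis, fatty acid and triglyceride synthesis, glycolysis and glucose use, and glycogen. The refed point lies to the right for every gene shown but Lpin1 and Ppp1r3g, and Pnpla5 and Ppp1r3g have the widest gaps.

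The listed PPARα targets were lower in refed liver and included the lowest ratio of the comparison. Of 43 PPARα targets and genes of fatty acid oxidation and ketone body synthesis, 8 were listed and 7 had at least 1 TPM. All 7 were at least 2-fold lower in refed liver, against 45.8% of all the genes described. Their median ratio was 3.82-fold lower. That median, a log2 ratio of -1.93, was -1.27 over the fasted table alone and -6.39 over the refed table alone. Their summed levels were 37.8 TPM in refed and 4210 TPM in fasted liver, most of it Cyp4a14. They were listed in every way: 1 as lower and 2 as higher in targeted fasted liver, and 1 as lower and 4 as higher in targeted refed liver, 1 gene being in both tables. Cyp4a14, a fatty acid ω-hydroxylase, had 9.84 TPM in refed and 3674 TPM in fasted liver, 373-fold lower (332 to 421), the lowest ratio of any listed gene above 0 in both control libraries. Its neighbour in the family Cyp4a31 had 0.73 TPM in refed and 61.0 TPM in fasted liver, and Acot1, an acyl-CoA thioesterase, had 3.05 TPM in refed and 411 TPM in fasted liver, 135-fold lower (103 to 181). Both Cyp4a genes and Acot1 have close relatives, and reads shared with them may have been split in ways the tables do not show.

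The remaining 4 differed less. Fgf21, the fasting hormone that the liver secretes, had 5.57 TPM in refed and 21.3 TPM in fasted liver, 3.82-fold lower. Abcd2, a peroxisomal fatty acid carrier, had 0.61 TPM in refed and 2.01 TPM in fasted liver, and Hilpda, an inhibitor of lipolysis on lipid droplets, had 7.78 TPM in refed and 18.7 TPM in fasted liver. Cd36, a fatty acid receptor at the cell surface, had 10.2 TPM in refed and 21.8 TPM in fasted liver, 2.13-fold lower (1.87 to 2.43).

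Regulators of the fasted state were lower too. Of 20 genes of gluconeogenesis and fasting control 3 were listed, all as lower in targeted fasted liver, a class in which 59.8% were at least 2-fold lower, and all 3 were lower. Igfbp1, a binding protein of insulin-like growth factors that insulin represses, had 173 TPM in refed and 1559 TPM in fasted liver, lower by 8.35 to 9.72-fold. Sik1, a kinase that restrains gluconeogenic transcription and is itself induced by cAMP, had 3.42 TPM in refed and 25.8 TPM in fasted liver. Cebpb, a transcription factor of gluconeogenic and stress genes, had 24.8 TPM in refed and 120 TPM in fasted liver.

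Genes of amino acid breakdown were mixed, with 2 of 4 listed genes lower and 1 higher, against 45.8% and 17.2% of all the genes described. Of these 4, 2 were listed as lower in targeted fasted liver, a class in which 59.8% were lower. The other 2 were listed as higher in targeted fasted liver, a class in which 43.6% were higher. Sds, the serine dehydratase that turns serine into pyruvate, had 66.6 TPM in refed and 383 TPM in fasted liver, 5.76-fold lower, and Sdsl, its relative, had 6.34 TPM in refed and 21.1 TPM in fasted liver. Bhmt, which remethylates homocysteine with betaine, had 2201 TPM in refed and 837 TPM in fasted liver, 2.63-fold higher. Gldc, of the glycine cleavage system, stayed under 2-fold with 55.4 TPM in refed and 33.5 TPM in fasted liver. All 5 listed genes of the amino acid and integrated stress response were lower, against 45.8% of all the genes described. Of the 5, 3 were listed as lower in targeted fasted liver, a class in which 59.8% were lower. Another 1 was listed as higher in targeted fasted and 1 as lower in targeted refed liver. Gdf15, a stress hormone, had 1.74 TPM in refed and 7.61 TPM in fasted liver. Ddit4, an inhibitor of mTORC1, had 9.64 TPM in refed and 31.6 TPM in fasted liver. Fgf21 and Cebpb also stand in that list, so the lists are not separate evidence. None of a set of 21 genes of endoplasmic reticulum stress and chaperones was in the tables; Ern1, the stress sensor IRE1α, which is outside that set and was chosen after its values were seen, had 11.2 TPM in refed and 2.51 TPM in fasted liver.

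Hormone and binding protein genes held a pair of opposites. Angptl8, a liver hormone that insulin induces and that holds back lipoprotein lipase, had 122 TPM in refed and 7.82 TPM in fasted liver, 15.6-fold higher (11.9 to 20.9). Lepr, the leptin receptor, had 2.38 TPM in refed and 71.7 TPM in fasted liver, 30.1-fold lower (25.6 to 35.7). Of the 7 listed genes of this group 1 was higher and 4 were lower, against 17.2% and 45.8% of all the genes described.

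Metallothioneins, small proteins that bind zinc and copper and that glucocorticoids and metals induce, were among the lowest. Mt1 had 23.7 TPM in refed and 945 TPM in fasted liver, 39.8-fold lower (31.9 to 50.5). Mt2 had 13.01 TPM in refed and 810 TPM in fasted liver, 62.3-fold lower (46.4 to 85.6). Both also stand in a list of 15 glucocorticoid-responsive genes, of which 4 were listed and all 4 were lower. Of these 4, 3 were listed as lower in targeted fasted liver, a class in which 59.8% were lower. The median log2 ratio of the 4 was -3.50, and -5.32 over the fasted table alone. The other members were Lpin1 and Dusp1, a phosphatase of MAP kinases. Dusp1 had 24.1 TPM in refed and 48.4 TPM in fasted liver, a log2 ratio of -1.01 that was -0.92 by FPKM.

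The promoters of the metallothionein pair are shown because both genes were low together and both windows hold a core of the metal response element, written TGCACNC or TGCGCNC. The 250 bases before each start are on the plus strand of GRCm38.p6, from RefSeq, at chr8:94178839-94179088 for Mt1 and at chr8:94172368-94172617 for Mt2, with matches on either strand in capitals.
Mt1: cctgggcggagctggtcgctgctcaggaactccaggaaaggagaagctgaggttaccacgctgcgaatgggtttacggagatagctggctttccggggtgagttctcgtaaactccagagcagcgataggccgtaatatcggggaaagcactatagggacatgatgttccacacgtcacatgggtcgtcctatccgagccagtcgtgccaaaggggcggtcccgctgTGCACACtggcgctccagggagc
Mt2: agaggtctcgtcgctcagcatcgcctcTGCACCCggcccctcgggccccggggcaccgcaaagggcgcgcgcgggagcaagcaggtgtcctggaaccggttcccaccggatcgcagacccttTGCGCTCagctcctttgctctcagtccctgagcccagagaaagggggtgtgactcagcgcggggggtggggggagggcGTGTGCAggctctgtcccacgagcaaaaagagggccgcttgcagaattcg
The Mt1 window held 1 match and the Mt2 window 3, none of which overlapped. A match of this short core was found in 21.4% of all 32851 promoters, in 30.8% of 130 promoters of genes that were at least 2-fold higher and in 25.9% of 370 promoters of genes that were at least 2-fold lower, so it is a description of these windows only.

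Clock genes were lower in 5 of 6 and higher in 1, against 45.8% and 17.2% of all the genes described. Of the 6, 3 were listed as lower in targeted fasted liver, a class in which 59.8% were lower. Another 2 were listed as higher in targeted refed liver (54.7% lower) and 1 as higher in targeted fasted liver (12.7% lower). The median log2 ratio of the 6 was -4.24, with -4.46 over the fasted table alone and -2.63 over the refed table alone. Ciart, a repressor that works on the clock's activators, had 0.07 TPM in refed and 12.5 TPM in fasted liver, or 1 read against 209 reads, so its ratio of 179-fold lower has an interval of 31.7 to 7092. Dbp, a transcription factor driven by the clock, had 0.63 TPM in refed and 15.3 TPM in fasted liver, 24.3-fold lower (12.6 to 53.7). Noct, a rhythmic phosphatase of NADPH, had 3.75 TPM in refed and 74.6 TPM in fasted liver, 19.9-fold lower (16.2 to 24.6).

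The repressors Nr1d2 and Nr1d1, known as REV-ERBβ and REV-ERBα, differed unequally. Nr1d2 had 2.87 TPM in refed and 51.6 TPM in fasted liver, and Nr1d1 had 3.42 TPM in refed and 7.25 TPM in fasted liver. Npas2, an activator that the REV-ERB proteins repress, ran the other way with 6.90 TPM in refed and 0.24 TPM in fasted liver, 28.8-fold higher (15.9 to 58.1). The hour of collection is not given, so the clock and the feeding state cannot be told apart. In targeted liver 1 of the 6 was at least 2-fold higher and 4 were lower, refed against fasted.

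The promoter of Ciart is shown because its window holds 3 copies of the E-box CACGTG, to which the clock's activators bind. It is the 250 bases before the start at chr3:95882229-95882478 of GRCm38.p6, minus strand, from RefSeq, with the copies in capitals at 116, 58 and 44 bases before the start.
Ciart: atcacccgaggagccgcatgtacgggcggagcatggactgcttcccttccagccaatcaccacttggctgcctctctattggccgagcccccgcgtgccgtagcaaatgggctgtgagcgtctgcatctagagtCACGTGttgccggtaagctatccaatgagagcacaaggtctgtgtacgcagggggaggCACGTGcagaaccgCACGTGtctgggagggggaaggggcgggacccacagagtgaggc
An E-box of these letters, which reads the same on both strands, was found in 6.02% of all promoters of this length, in 6.92% of those of genes at least 2-fold higher and in 5.95% of those of genes at least 2-fold lower. Of 6 promoters found for the clock genes the 1 with a match was of Ciart, and of 10 found for the fat synthesis genes the 1 was of Pnpla5. A gene can have several promoters or none among those found.

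**Figure D4:**
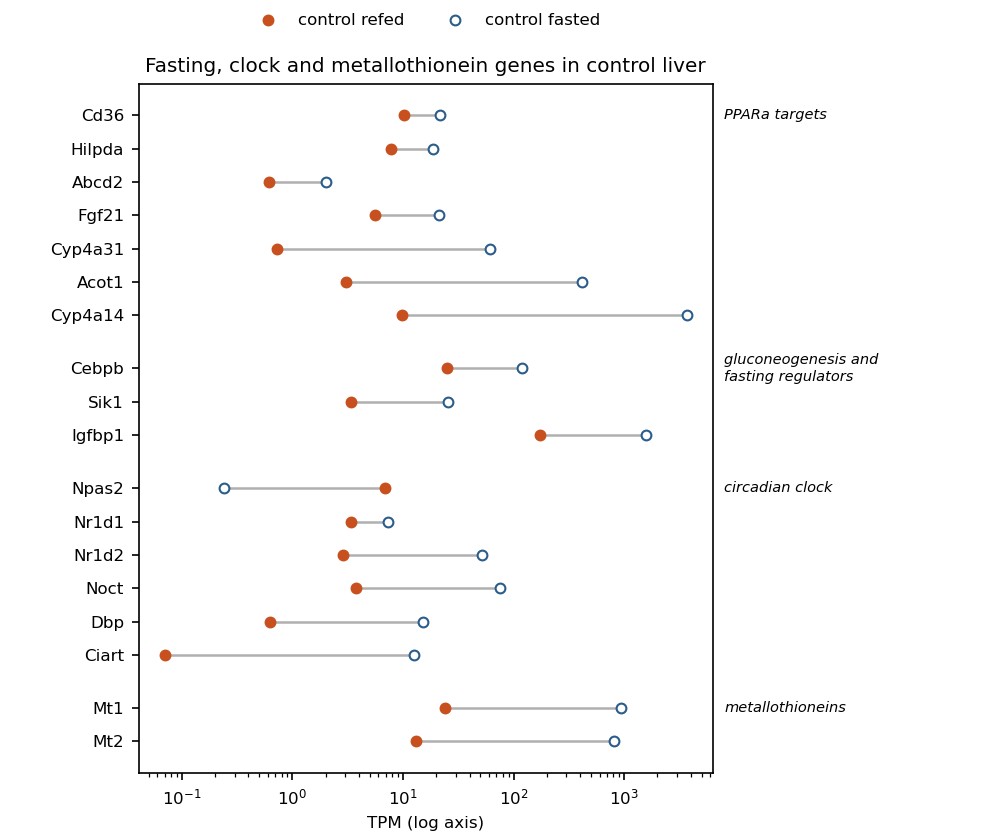
TPM on a logarithmic axis in the control refed library (filled) and the control fasted library (open) for the listed PPARα targets, fasting regulators, clock genes and metallothioneins. The refed point lies to the left for every gene but Npas2, and Cyp4a14 and Ciart have the widest gaps.

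Genes of bile acid synthesis and transport gave no common direction. Of 7 listed bile acid genes 1 was higher and 3 were lower, shares near the 17.2% and 45.8% of all the genes described. Of the 7, 5 were listed as higher in targeted fasted liver, a class in which 43.6% were higher and 12.7% lower. Another 2 were listed as lower in targeted fasted liver (59.8% lower). As higher in targeted refed liver (54.7% lower) 3 were listed, some genes being in both tables. Cyp7a1, which catalyses the slowest step from cholesterol to bile acids, had 4.16 TPM in refed and 13.7 TPM in fasted liver, 3.28-fold lower (2.81 to 3.85), while Cyp8b1, which sets the cholic acid share, had 262 TPM in refed and 177 TPM in fasted liver. Abcb11, the bile salt export pump, had 236 TPM in refed and 90.0 TPM in fasted liver, 2.62-fold higher. Slco1a4 and Abcc3, carriers at the blood side of the hepatocyte, were lower, with 3.32 TPM in refed and 22.1 TPM in fasted liver for Slco1a4 and 8.93 TPM in refed and 27.2 TPM in fasted liver for Abcc3.

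LXR targets were lower in 4 of 6 listed genes, all 6 of them listed as higher in targeted refed liver, a class in which 54.7% were lower. Abcg5, a subunit of the sterol exporter to bile, had 17.6 TPM in refed and 50.5 TPM in fasted liver, and its partner Abcg8, under 2-fold, had 12.7 TPM in refed and 23.3 TPM in fasted liver. The lipogenic genes above other than Lpin1, some of which LXR also drives, lay on the other side.

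P450 genes of the drug metabolism list were lower more often than higher, as were the genes described as a whole. Of 16 listed P450 genes 13 had at least 1 TPM, of which 7 were lower and 2 higher, against 45.8% and 17.2% of all the genes described. Their median log2 ratio was -1.11, against -0.86 over all the genes described. Of the 13, 10 were listed as higher in targeted fasted liver, a class in which 12.7% were lower, and 6 as higher in targeted refed liver, a class in which 54.7% were lower. Cyp3a11, the most abundant of them in fasted liver, had 454 TPM in refed and 1152 TPM in fasted liver, and Cyp2a5 had 86.3 TPM in refed and 462 TPM in fasted liver, 5.35-fold lower (5.05 to 5.68). Cyp17a1, a steroid hydroxylase, had 6.07 TPM in refed and 22.9 TPM in fasted liver, and Cyp2c38 had 8.76 TPM in refed and 34.99 TPM in fasted liver. Cyp26a1, which degrades retinoic acid, ran the other way, with 25.7 TPM in refed and 1.29 TPM in fasted liver, 19.9-fold higher (12.9 to 32.5).

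Of 11 listed genes of NRF2 and glutathione 5 were lower and 1 higher, a share near the 45.8% of all genes, with a median log2 ratio of -0.53. In this list 10 of the 11 were listed as higher in targeted refed liver, a class in which 54.7% were lower. Gsta1, a glutathione transferase, had 2.81 TPM in refed and 43.5 TPM in fasted liver, and Gsta2, Gstt2 and Gstp2 were 3.44-fold, 3.65-fold and 2.85-fold lower. The P450 and glutathione transferase genes form families of near copies, and no label or header says how the authors assigned shared reads.

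Genes known to be higher in male liver were higher in refed liver, and those known to be higher in female liver were lower. Growth hormone, which males secrete in pulses, sets both groups. Of 11 listed male-biased genes 8 were at least 2-fold higher and none was 2-fold lower, with a median log2 ratio of 1.43. All 11 were listed as lower in targeted fasted liver, a class in which only 5.32% were higher, so here the list and its class lean opposite ways. Selenbp2, a selenium-binding protein, had 643 TPM in refed and 71.6 TPM in fasted liver, 8.99-fold higher (8.48 to 9.54). Hsd3b5, a steroid dehydrogenase of male liver, had 215 TPM in refed and 25.4 TPM in fasted liver, 8.44-fold higher (7.62 to 9.37).

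The Mup genes included the highest levels of the comparison, and 5 of them (Mup1, Mup7, Mup11, Mup12 and Mup15) stand in the male-biased list. All 11 listed Mup genes, in that list or not, summed to 128505 TPM in refed and 63167 TPM in fasted liver, 2.03-fold higher, with 8 of the 11 at least 2-fold higher. Mup7, the highest of all listed genes, had 52657 TPM in refed and 22544 TPM in fasted liver, and Mup15 had 18489 TPM in refed and 5104 TPM in fasted liver. Mup10, which is not in the male-biased list, ran the other way, with 6789 TPM in refed and 13986 TPM in fasted liver. The Mup genes are nearly identical in sequence, so the split of reads among them is uncertain and their sum is the safer value; TPM adds to a fixed total, so a larger Mup share in refed liver leaves less of it for the other genes. Moxd1, with 1.57 TPM in refed and 0.47 TPM in fasted liver, was the least abundant of the male-biased genes. Of 6 listed female-biased genes 3 had at least 1 TPM, and these 3 were lower, against 45.8% of all the genes described. They were Nipal1, a magnesium carrier, with 1.99 TPM in refed and 9.10 TPM in fasted liver, and Cyp17a1 and Abcd2, described above.

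Acute phase and interferon genes mostly stayed under 2-fold, and cell division genes were split. Of 8 listed acute phase and hepcidin genes 1 was higher and 2 were lower, against 17.2% and 45.8% of all the genes described. Of the 8, 5 were listed as higher in targeted refed liver, a class in which 54.7% were lower. In targeted fasted liver 2 were listed as lower and 2 as higher. Hamp2, a hepcidin gene, had 104 TPM in refed and 47.7 TPM in fasted liver. Orm2 had 33.9 TPM in refed and 127 TPM in fasted liver, and Il1rn had 1.81 TPM in refed and 7.13 TPM in fasted liver. None of 6 listed interferon-response genes reached 2-fold, with Tgtp2 nearest at 3.47 TPM in refed and 6.63 TPM in fasted liver. Of the 6, 4 were listed as lower in targeted fasted liver, a class in which 59.8% were lower. As higher in targeted refed liver, a class in which 54.7% were lower, 3 were listed. Of 19 listed cell division genes 8 had at least 1 TPM, and 4 of these were lower, against 45.8% of all the genes described. Stmn1, which destabilises microtubules, had 4.25 TPM in refed and 15.1 TPM in fasted liver, and Ccnd1, the cyclin D1 gene, had 7.0 TPM in refed and 5.84 TPM in fasted liver. The median of the 8, a log2 ratio of -1.01, was -0.45 with a pseudocount of 1 TPM.

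Of 9 listed immediate early genes 7 had at least 1 TPM. Of these 6 were lower, and 6 of the 7 were listed as lower in targeted fasted liver, a class in which 59.8% were lower. Rgs1, a regulator of G-protein signalling found in lymphoid and myeloid cells, had 0.88 TPM in refed and 16.3 TPM in fasted liver, 18.5-fold lower (10.4 to 36.4). Ccn2, a matrix protein, had 1.22 TPM in refed and 16.2 TPM in fasted liver, 13.2-fold lower, and Klf6, a zinc finger factor, had 3.22 TPM in refed and 7.55 TPM in fasted liver. Fos had 0.96 TPM in refed and 2.66 TPM in fasted liver.

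Markers of cells other than hepatocytes were mostly lower in refed liver. Of 142 such markers 45 were among the genes described, of which 36 were lower and 2 higher, with a median log2 ratio of -1.36. Endothelium made up 22 of them, with 20 lower and none higher; their sum was 128 TPM in refed and 375 TPM in fasted liver. Pecam1, a junction protein of endothelial cells, had 4.48 TPM in refed and 14.9 TPM in fasted liver, 3.33-fold lower (2.79 to 3.98), and Lyve1, a hyaluronan receptor of sinusoidal and lymphatic endothelium, had 2.26 TPM in refed and 13.3 TPM in fasted liver. Kupffer cell and macrophage markers were lower in 7 of the 8 at 1 TPM or more, with sums of 184 TPM in refed and 447 TPM in fasted liver. Cd163, a haemoglobin scavenger receptor, had 1.81 TPM in refed and 16.8 TPM in fasted liver, and Marco, another scavenger receptor, had 4.69 TPM in refed and 23.8 TPM in fasted liver.

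Lymphocyte markers were lower in 8 of 8. Cd3g, of the T-cell receptor complex, had 0.83 TPM in refed and 5.69 TPM in fasted liver, or 8 reads against 51. Of 3 red blood cell genes 1 was lower, Hbb-bs, with 81.6 TPM in refed and 180 TPM in fasted liver, and the 1 listed neutrophil marker, S100a9, had 8.88 TPM in refed and 15.3 TPM in fasted liver. Of 4 listed stellate cell and matrix markers 3 had at least 1 TPM, with 2 higher and none 2-fold lower: Col3a1, a fibrillar collagen, had 12.8 TPM in refed and 6.04 TPM in fasted liver, and Tagln, a smooth muscle protein, had 15.6 TPM in refed and 7.70 TPM in fasted liver, while Mmp2, a matrix protease, had 0.93 TPM in refed and 1.53 TPM in fasted liver. No cholangiocyte marker was listed. No marker among the members of these lists was at 0 TPM. In bulk RNA, fewer cells of a type and less RNA per cell cannot be told apart.

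Of these 45 markers 41 were listed as lower in targeted fasted liver, and 32 of the 41, or 78.0%, were lower in control refed than in control fasted liver, against 249 of the other 429 genes listed the same way, or 58.0%. The medians of these groups were -1.34 and -1.14 on the log2 scale. In the targeted pair of libraries the median log2 ratio of the same markers, refed over fasted, was 0.05 for endothelium, 0.43 for macrophages and 0.62 for lymphocytes; the choice of genes used the control and targeted fasted libraries, and its part in this was not tested. Rgs1, Ccn2 and other genes lower in refed liver are also made by these cells, and their part in those ratios was not tested.

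**Figure D5:**
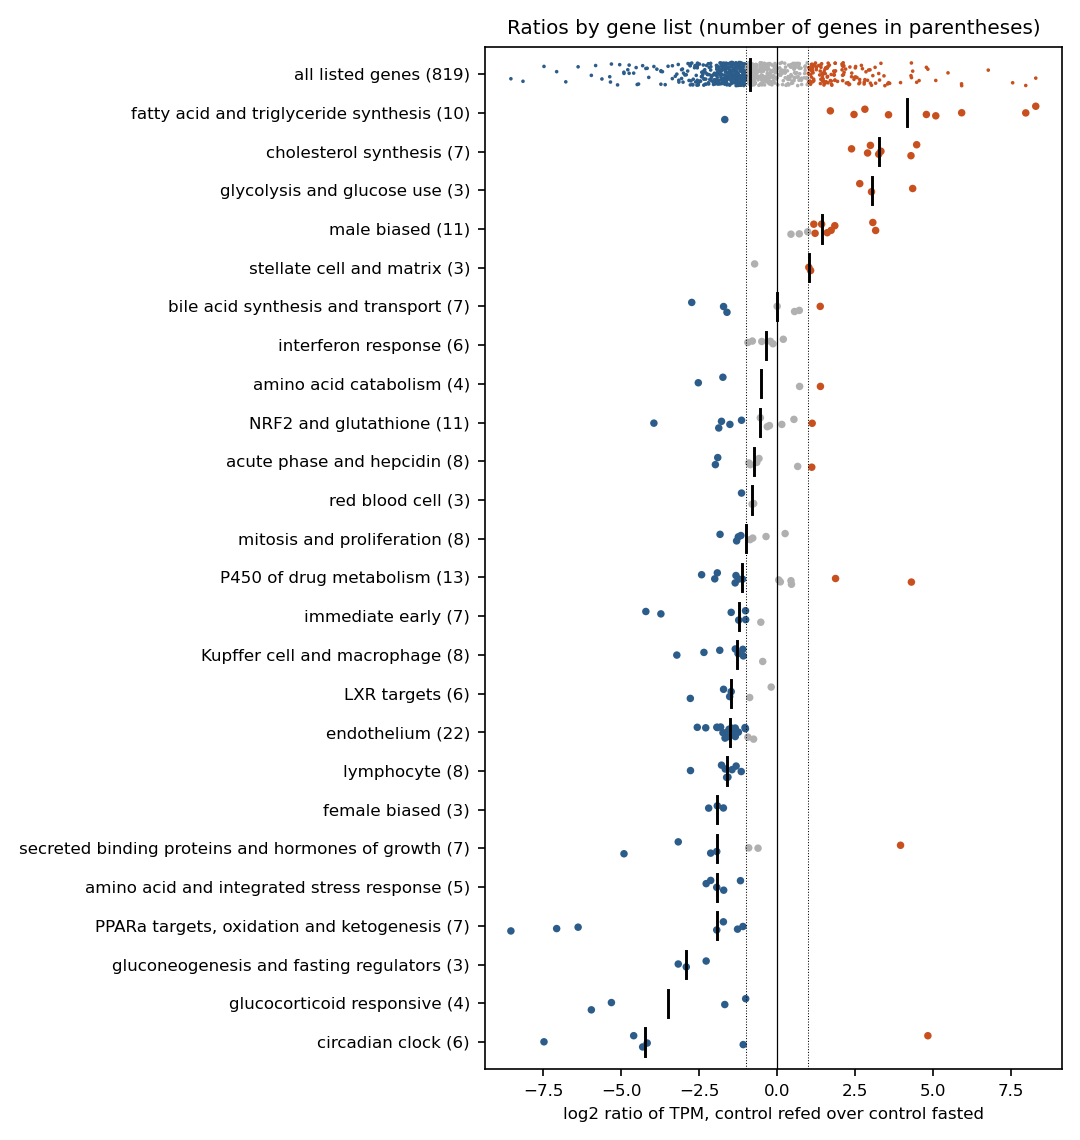
Log2 ratios of TPM, control refed over control fasted, for the lists with at least 3 genes, ordered by median (vertical bars), with all 819 genes with a ratio at the top and the number of genes in parentheses. Orange points are at least 2-fold higher in refed liver, blue points at least 2-fold lower; fat and cholesterol synthesis lie farthest right, clock and glucocorticoid-responsive genes farthest left.

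Of the genes with the largest ratios, 6 belong to none of the lists. Aqp8, a water channel of the bile canaliculus that also passes hydrogen peroxide, had 559 TPM in refed and 5.07 TPM in fasted liver, 110-fold higher (87.7 to 141). Chrna4, a subunit of the nicotinic acetylcholine receptor, had 77.8 TPM in refed and 0.41 TPM in fasted liver, 190-fold higher (123 to 311). Fabp5, a fatty acid binding protein, had 1006 TPM in refed and 42.6 TPM in fasted liver, 23.6-fold higher (21.2 to 26.4). These 3 were listed in different ways, Aqp8 as higher in targeted fasted, Chrna4 as lower in targeted refed and Fabp5 as lower in targeted fasted liver.

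At the low end, Myom1, a protein of the muscle sarcomere, had 0.26 TPM in refed and 14.7 TPM in fasted liver, 56.6-fold lower (35.2 to 97.6). Asic5, an ion channel that bile acids open, had 0.98 TPM in refed and 40.5 TPM in fasted liver, 41.4-fold lower. Lgals4, a galectin, had 2.88 TPM in refed and 87.0 TPM in fasted liver, 30.2-fold lower. Apoa4, the 1 gene of the hepatocyte list in the tables and an apolipoprotein that fasting and lipid load raise in mouse liver, had 392 TPM in refed and 2837 TPM in fasted liver, 7.24-fold lower (6.93 to 7.58). A pair of genes had no reads in refed liver: 2210418O10Rik, at 2.06 TPM in fasted liver, was at least 30-fold lower, and Adam2, at 2.63 TPM in fasted liver, at least 24.7-fold lower, taking 3 reads as the most that a count of 0 allows in a library.

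The targeted pair of libraries gives a second refed and fasted liver, of another genotype. Of the 141 genes at least 2-fold higher in control refed liver, 65 were also at least 2-fold higher in targeted refed than in targeted fasted liver and 4 were at least 2-fold lower. Of the 376 that were lower, 97 were also lower in the targeted pair and 18 were higher. Fasn had 122 TPM in targeted refed and 9.01 TPM in targeted fasted liver, Hmgcs1 had 161 and 72.4 TPM, and Cyp4a14 had 36.0 and 4604 TPM, in the same order. The median ratio of the 7 cholesterol genes in that pair was 2.78-fold higher and that of the 10 fat synthesis genes 5.34-fold higher. Because these genes were listed for being lower in targeted refed liver, a smaller ratio in that pair is partly fixed by the choice, and the difference between the pairs was not tested.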

How the data were processed

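Total RNA of mouse liver, extracted with TRIzol per the labels' protocols, was sequenced in 4 libraries, 1 per group. The authors deposited TPM and FPKM for each library, log2 ratios of pairs of libraries and p-values of those ratios, per the file headers; the sources used here do not name the aligner, the counter or the genome build. Genes short of a threshold on the genotype ratio are not in the tables. Genes were joined by symbol, kept at 1 TPM or more in either control library, and their log2 ratios were taken from TPM without a pseudocount (Python 3.11.15, pandas 2.3.3).

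The deposited log2 ratios and p-values of most genes follow from whole reads of 2 libraries, so reads were worked out from them with scipy 1.17.1. Control fasted reads from both comparisons that give them were equal in 582 of 612 genes (95.1%). The working was tested on simulated reads. Reads were had in both libraries for 626 genes, and for 31 only the fewest reads possible. For genes of the refed table alone, control fasted reads were estimated from control refed reads, some of these the fewest possible, and FPKM. From either way 12 genes had no reads. The median gene had 107 reads in control refed and 154 in control fasted liver, and the refed library was 1.02 times as deep. Intervals and floors cover counting error only. The deposited p-values compare reads of 2 libraries, not conditions, and are not reported.

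The genes and the 33 lists were chosen with earlier results of these data known. Genes named were, from each list, up to 4 with the largest ratios, and the 10 highest and 10 lowest ratios at 10 TPM or more in the higher control library, leaving out clone names; further members of a list are named to complete it, and 1 gene that the rule names is not reported here. Promoters came from RefSeq tables (GRCm38.p6) by symbol, with a match for 620 of 821 genes. Alternatives were FPKM, a pseudocount, other filters, single tables, the direction of listing, the authors' own ratio and 4-fold.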

Additional observations from a re-analysis of the deposited data

Results flagged for a closer look

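The ratio of refed over fasted liver pointed opposite ways in the genotypes, each by at least 2-fold, for 5 of the genes that the naming rule picked; with 1 library a group the difference was not tested. Bhmt had a log2 ratio of -1.11 in targeted liver (1151 TPM refed, 2481 TPM fasted) and 1.39 in control liver (2201 TPM refed, 837 TPM fasted). Cd3g had 1.09 in targeted liver (2.70 TPM refed, 1.27 TPM fasted) and -2.78 in control liver (0.83 TPM refed, 5.69 TPM fasted). Lck, a T-cell kinase, had 1.44 in targeted liver (1.38 TPM refed, 0.51 TPM fasted) and -1.66 in control liver (0.80 TPM refed, 2.53 TPM fasted). Fos had 1.21 in targeted liver (2.01 TPM refed, 0.87 TPM fasted) and -1.47 in control liver (0.96 TPM refed, 2.66 TPM fasted). Gtse1, a cell division gene, had 1.68 in targeted liver (0.48 TPM refed, 0.15 TPM fasted) and -1.24 in control liver (0.44 TPM refed, 1.04 TPM fasted). For each of the 5 the fasted libraries differ more between the genotypes than the refed libraries do, and the fasted table alone lists the gene. All but Bhmt rest on levels under 6 TPM.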

How the results depend on the processing

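No paired analysis was possible because each group has 1 library. Against 141 genes higher and 376 lower at 2-fold, a pseudocount of 1 TPM gave 238 lower and a minimum of 5 TPM gave 213 lower. The refed table alone gave 48 higher and 101 lower. Genes listed only as higher in a targeted library gave 83 higher, 89 lower and a median log2 ratio of -0.11, and those listed only as lower gave 55 higher. A 4-fold threshold gave 66 higher and 114 lower. Counting only intervals wholly past 2-fold, an alternative chosen after seeing the data like the next, gave 225 lower; leaving out markers of other cell types gave 139 higher and 340 lower. The smaller sets hold fewer genes by construction. FPKM, no filter, the fasted table alone and the authors' own ratio kept the counts within 1.5 times and every median below 0. The FPKM ratios lie 0.087 above the TPM ratios on the log2 scale at the median, and the authors' ratios 0.109 above; of the named genes this turned the sign of Scarb1 alone (-0.02 by TPM, 0.06 by FPKM). Of 91 genes picked by the naming rule and past 2-fold, 11 fell under it with the pseudocount (Abcd2, Arl4c, Birc5, Cd3d, Col3a1, Dusp1, Fos, Gtse1, Lck, Moxd1 and Tagln), and Dusp1 alone did with FPKM. With the pseudocount the medians of the lists of P450, immediate early and stellate cell genes also fell under 2-fold. Summing rows that share a symbol was not run, since no symbol is repeated. The medians of lists depended on the table: 11 of 26 moved with the refed table alone and 4 of 28 with the fasted table alone, where fat synthesis was at 2.65, and bile acid genes turned to -1.72 with the refed table alone. Few reads limit the precision of low genes, and 79 genes lie within 0.1 log2 of 2-fold.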

Other observations

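Other genes with large differences in control liver, chosen after their values were seen, add to the account. Cldn1, a claudin, had 89.0 TPM in refed and 9.07 TPM in fasted liver, Cgn, the cingulin gene, had 21.6 TPM in refed and 4.93 TPM in fasted liver, and Tjp3, a scaffold of tight junctions, had 14.1 TPM in refed and 2.90 TPM in fasted liver. By the authors' pathway annotation, 5 of 12 genes of tight junctions were at least 2-fold higher and 2 lower. Of 16 genes of cell adhesion molecules 2 were higher and 10 lower. Over all the genes described 17.2% were higher and 45.8% lower. Cldn1 and Cgn were listed as higher in targeted fasted liver, a class in which 43.6% were higher. Tight junctions had the highest median log2 ratio, 0.61, of the pathways with at least 10 of the genes described. Leap2, which encodes a liver peptide that blocks the ghrelin receptor, had 324 TPM in refed and 44.7 TPM in fasted liver, 7.25-fold higher (5.96 to 8.89). Slc30a10, a manganese exporter, had 30.7 TPM in refed and 3.87 TPM in fasted liver, and Coq8a, of coenzyme Q synthesis, had 283 TPM in refed and 49.0 TPM in fasted liver.

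On the lower side, G0s2, an inhibitor of the lipase ATGL, had 20.4 TPM in refed and 470 TPM in fasted liver, 23.0-fold lower (19.5 to 27.3). Gpat3, a glycerol phosphate acyltransferase, had 0.92 TPM in refed and 25.5 TPM in fasted liver, and Plin4, a lipid droplet protein, had 0.83 TPM in refed and 18.1 TPM in fasted liver, so these lipid genes lay opposite to Fasn and Pnpla3. Upp2, a uridine phosphorylase, had 26.5 TPM in refed and 460 TPM in fasted liver. Nnmt, which methylates nicotinamide, had 86.7 TPM in refed and 724 TPM in fasted liver, and Alas1, the first enzyme of haem synthesis, had 44.0 TPM in refed and 356 TPM in fasted liver, 8.09-fold lower (7.65 to 8.56).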
